A study of Mus musculus with 12 samples.

Results

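Loss of Hoxa9 on a background labelled as targeted for beta-catenin was examined in LSK cells, the lineage-negative, Sca-1-positive, Kit-positive cells that hold the blood stem cells and the multipotent progenitors of the mouse. The comparison set 2 RNA-seq libraries with beta-catenin and Hoxa9 both targeted (dKO) against 2 libraries with beta-catenin targeted alone (Bcat_KO), so 4 of the 12 libraries of the series entered it. The members were all autosomal genes of the count table, 51155 of 55471, and 16503 of them passed the filter on low counts and were tested. By their labels, both groups therefore carried the beta-catenin targeting and differed by the Hoxa9 targeting. For reference, 2 libraries with Hoxa9 targeted alone (Hoxa9_KO) and 2 untargeted libraries (WT) gave the loss of Hoxa9 with beta-catenin untouched. These reference groups also differed in sex by their transcripts: WT held 182 and 163 CPM of the X-inactivation transcript Xist and 1.88 and 2.87 CPM of the Y-linked Ddx3y, and Hoxa9_KO held 0 and 0.582 CPM and 61.4 and 66.2 CPM. Hoxa9 loss and sex therefore cannot be told apart in Hoxa9_KO against WT, nor in any difference between it and dKO against Bcat_KO. In every group the cells came from mice that had received a primary transplant, taken 6 weeks after tamoxifen. The titles call the targeted groups knockouts while the genotype field calls them knockdowns. The promoter that drives the deletion, the exons removed, the ages and any pooling of animals do not appear in the labels.

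Hoxa9 is a homeobox transcription factor that binds DNA together with PBX and MEIS proteins and sustains self-renewal in normal and leukaemic blood progenitors. Beta-catenin, encoded by Ctnnb1, is the coactivator that carries the canonical Wnt signal into the nucleus and also links cadherins to the cytoskeleton at cell junctions. Long-term stem cells divide rarely and express adhesion and megakaryocyte-type genes, whereas multipotent progenitors divide often and express Cd34, Flt3 and Cd27.

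Levels are given as CPM, counts per 1e6 reads counted and scaled by the trimmed mean of M values (TMM), for the Bcat_KO libraries tagged S3 and S4 and the dKO libraries tagged S6 and S7, in that order. Changes are log2 fold changes of dKO over Bcat_KO from an edgeR quasi-likelihood fit. Their standard error (SE) was derived as the absolute change divided by the square root of the F statistic of its test. A gene was called when its Benjamini-Hochberg adjusted p was under 0.05. The labels do not tie libraries to animals, and the spread behind each p-value may therefore be only technical.

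The Bcat_KO libraries stood apart from the other 10. They were the deepest, with about 29944000 and 40554000 counts against 17570000 to 26755000 elsewhere, yet they held a count for the fewest genes, 17917 and 17540 against 21718 to 26929. Sensory receptor genes of the nose (olfactory and vomeronasal), a measure of background here, summed to 15.2 and 11.2 CPM in Bcat_KO and to 63.3 to 181 CPM elsewhere. Xist stood at 11.2 and 21.9 CPM in Bcat_KO, between the 163 to 202 CPM of the 4 untargeted libraries of the series and the at most 0.758 CPM of the 6 others, which include dKO at 0.619 and 0.418 CPM. Ddx3y stood at 62.3 and 60.6 CPM in Bcat_KO and 65.0 and 69.8 CPM in dKO, against at most 2.87 CPM in the 4 untargeted libraries. Both Bcat_KO libraries share these features, so the genotype and any difference in how the libraries were made cannot be told apart. The gate markers were present, with Kit at 424 and 430 against 359 and 414 CPM and Ly6a, which encodes Sca-1, at 73.7 and 74.3 against 199 and 155 CPM. Lineage genes were mixed. Cd3e was at 0 in Bcat_KO and at most 0.387 CPM in dKO, and Ly6g at 0 against 3.72 and 3.26 CPM. Itgam was at 8.64 and 6.29 against 21.8 and 12.7 CPM, and Klrb1c, the NK cell receptor NK1.1, at 5.65 and 3.16 against 20.6 and 25.5 CPM, the highest of the 12 libraries. The part of such cells in the results was not tested.

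**Figure D1:**
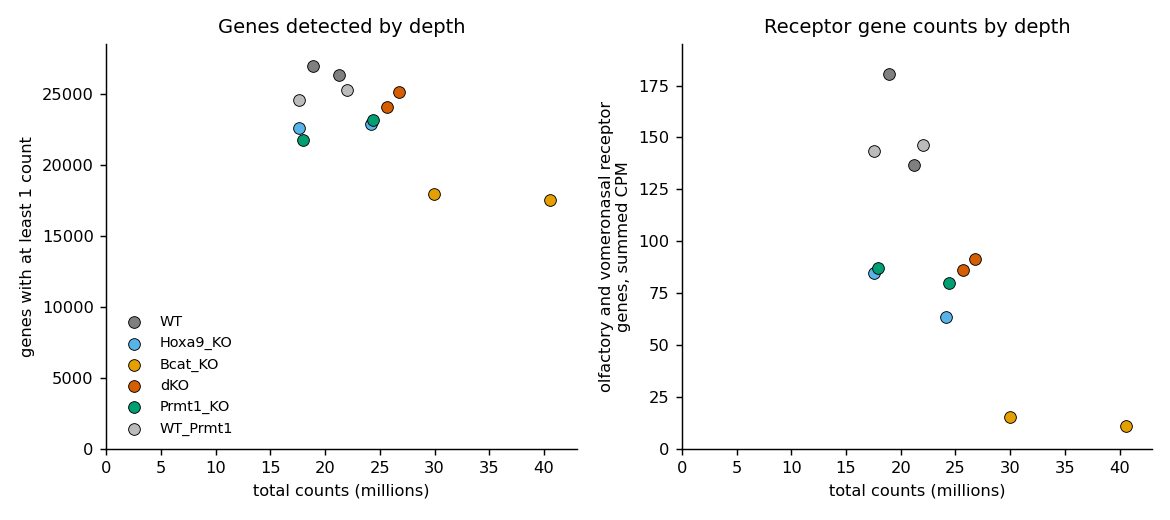
Genes with at least 1 count (left) and summed CPM of olfactory and vomeronasal receptor genes (right) against the total counts of each of the 12 libraries, coloured by group. The 2 Bcat_KO libraries are the deepest and lie lowest in both panels, at 17917 and 17540 genes and at 15.2 and 11.2 CPM.

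Of the autosomal genes tested, 2614 were higher in dKO (15.8%) and 1916 were lower (11.6%), together 27.4%. Hoxa9_KO against WT, which shares no library with this comparison, called 594 genes higher (3.6%) and 280 lower (1.7%), together 5.3%. These shares are the reference for the list members called in each comparison below. The groups did not overlap for 34.6% of genes in the higher direction and for 28% in the lower one. Without the dKO library S7 the 4530 calls fell to 2772, and without the Bcat_KO library S4 to 2842. The median change over the genes tested was 0.06.

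Many called genes had a group beyond all 10 other libraries, and this group was Bcat_KO more often than dKO. Genes were called for a difference between Bcat_KO and dKO, which by itself raises the share with either group at an extreme. Whether a call rested on the Bcat_KO or the dKO level was not tested. Among the rises, 1019 (39.0%) had both Bcat_KO libraries below all 10 other libraries of the series, and 575 had both dKO libraries above all 10 others. Among the falls, 770 (40.2%) had Bcat_KO above all 10 others and 465 (24.3%) had dKO below all 10 others. Over all genes tested, Bcat_KO lay below the other 10 libraries for 8.75% and above them for 8.40%, and dKO for 4.24% and 5.48%. Restricted to genes whose Bcat_KO level was not beyond the other 10 libraries, 1595 rises and 1146 falls were called. Of all rises, 729 started from a Bcat_KO mean under 1 CPM, and 416 of these from no count at all; single genes of this kind are given apart from the others.

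**Figure D2:**
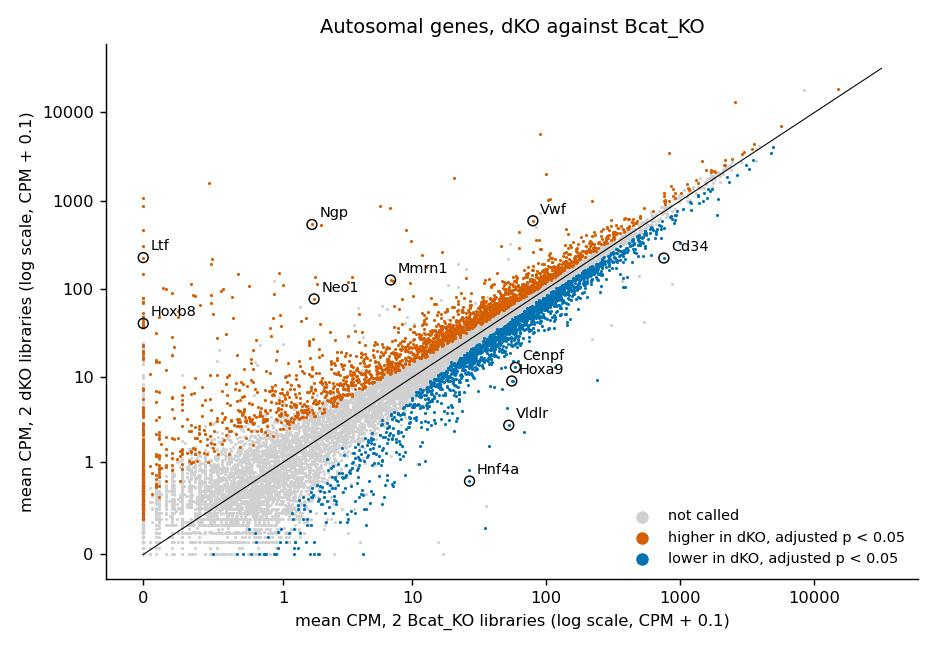
Mean CPM of each autosomal gene tested in the 2 dKO libraries (vertical) against the 2 Bcat_KO libraries (horizontal), both on a log scale after adding 0.1, with called genes in colour and some described genes circled. Rises spread along the left edge, where 416 called genes had no count in Bcat_KO.

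The targeted gene came first. Hoxa9 (ENSMUSG00000038227, chr6:52223100-52231089, minus strand, GRCm38) stood at 49.2 and 61.9 CPM in Bcat_KO and at 9.21 and 8.92 CPM in dKO. Both dKO libraries lay far below both Bcat_KO libraries, and the gene fell by 2.61 ± 0.17 (SE, n = 2 libraries a group; edgeR adjusted p 1.39e-05). The fall in Hoxa9_KO against WT was 2.53, from 58.7 and 59.9 to 12.2 and 8.36 CPM. Ctnnb1 (ENSMUSG00000006932, chr9:120929216-120960507, plus strand), targeted in both groups, stood at 276 and 267 CPM in Bcat_KO and 227 and 235 CPM in dKO. That difference of -0.23 ± 0.07 had an adjusted p of 0.0329 and passed with all libraries, but with any 1 of the 4 libraries left out its adjusted p was 0.0819 to 0.208. WT held 315 and 342 CPM of Ctnnb1 and Hoxa9_KO held 363 and 349 CPM. The transcript was thus lower in Bcat_KO than in WT but far from absent; the exons targeted are not in the labels, so the count over the whole gene neither bears out the label nor settles it.

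The Hoxb genes rose and most Hoxa genes did not. Of 8 Hoxb genes tested, 5 rose and none fell, with a median change of 3.18; their summed level was 17.1 and 15.6 CPM in Bcat_KO and 80.1 and 109 CPM in dKO. Hoxb8 (chr11:96281905-96285315, plus strand) had no count in either Bcat_KO library and 31.6 and 50.4 CPM in dKO. Against a floor of 3 counts over both Bcat_KO libraries it was at least 1012-fold higher (adjusted p 2.4e-05); counts of 2 were commoner than counts of 1 in every library, as when both mates of a pair are counted, so this floor may be too low. Hoxb8 also rose in Hoxa9_KO, from 1.67 and 0.740 to 46.7 and 26.2 CPM. Hoxb6, at 0.508 and 1.04 CPM in Bcat_KO, reached 9.02 and 13.2 CPM in dKO and rose by 3.82 ± 0.50 (adjusted p 0.000413). Hoxb5, a marker of long-term stem cells, went from 3.14 and 1.93 to 12.9 and 16.4 CPM, a rise of 2.53 ± 0.43 (adjusted p 0.0017). Hoxb9 rose as well, and Hoxb7 rose from no count to 0.813 and 1.14 CPM, a call that was lost without the Bcat_KO library S4 (adjusted p 0.0571). Hoxb4 was at 8.58 and 9.24 against 14.4 and 14.0 CPM (0.67 ± 0.27, adjusted p 0.0841), Hoxb2 at 1.78 and 1.04 against 3.60 and 3.49 CPM, and Hoxb3 at 2.41 and 2.36 against 2.67 and 2.73 CPM, none of them called. Of the 5 Hoxb changes, that of Hoxb8 alone passed the test of a difference from Hoxa9_KO against WT (adjusted p 0.0083). The Hoxb8 levels of dKO and Hoxa9_KO overlapped. Its difference rests on no count in Bcat_KO against 1.67 and 0.740 CPM in WT, and its size cannot be given.

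Among the 8 Hoxa genes tested, 2 fell and none rose. Besides Hoxa9 itself, Hoxa4 fell from 1.18 and 2.31 to 0.503 and 0.228 CPM (-2.24 ± 0.65, adjusted p 0.0267), and this call was lost without the Bcat_KO library S4 (adjusted p 0.14) or the dKO library S7 (adjusted p 0.177). The other 6 lay between -0.45 and -0.15 and were not called. Of 10 Hox cofactor genes, 2 rose (20%) and 2 fell (20%), against 15.8% and 11.6% over all autosomal genes tested. Pbx3, a PBX partner of Hoxa9, rose from 8.54 and 12.2 to 31.3 and 34.7 CPM (1.67 ± 0.20, adjusted p 0.000285), and both dKO libraries exceeded all 10 others. Pknox1, which encodes the MEIS-related factor PREP1, fell by 0.82 ± 0.12, and Tgif1, a TALE repressor, fell by 0.69 ± 0.14.

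Genes of long-term stem cells rose. Of 45 tested, 34 were higher and 2 lower in dKO, with a median change of 1.12, and 29 of the rises were genes whose Bcat_KO level was not below all other libraries. In Hoxa9_KO against WT 27 of the same list were higher and 1 lower, with a median of 0.77. Neo1, the netrin and RGM receptor neogenin that marks dormant stem cells, stood at 1.33 and 2.22 CPM in Bcat_KO and 61.2 and 94.1 CPM in dKO. The dKO values were the highest of all 12 libraries, and the rise was 5.43 ± 0.46 (adjusted p 4.29e-05). Clca3a1 went from 11.0 and 9.21 to 80.7 and 85.9 CPM (3.05 ± 0.18, adjusted p 1.06e-05), with a gap between the groups much larger than the spread within them. Slamf1, which encodes the stem cell surface marker CD150, went from 15.3 and 16.1 to 43.7 and 67.6 CPM (1.83 ± 0.25), and Tek, the angiopoietin receptor Tie2, from 20.5 and 23.8 to 60.7 and 75.0 CPM (1.61 ± 0.14). Pdzk1ip1 rose by 1.89 ± 0.12. Prdm16, a transcription factor required for stem cell maintenance, rose by 1.12 ± 0.24, a call lost without the dKO library S7 (adjusted p 0.05). Mecom, which encodes EVI1, and Procr, the EPCR stem cell marker, were called with all libraries; without S7 their changes dropped to 0.48 (adjusted p 0.171) and 0.46 (adjusted p 0.13), and the calls were also lost without Bcat_KO S4 for Mecom and without Bcat_KO S3 for Procr. Vldlr, also on the list, went the other way and is described with the largest falls, and Hlf stood at 225 and 221 against 132 and 181 CPM, a fall whose call was lost without any of 3 libraries, Bcat_KO S3, Bcat_KO S4 or dKO S6.

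Of the megakaryocyte and platelet genes 18 of 25 tested were higher and 2 lower, with a median of 1.37. None of the 18 had Bcat_KO below all 10 other libraries. The 2 that fell were the transcription factor genes Nfe2 (-0.45 ± 0.11, edgeR adjusted p 0.0106) and Fli1 (-0.45 ± 0.11, edgeR adjusted p 0.0132). Both had Bcat_KO above all 10 others. Mmrn1, the platelet and stem cell protein multimerin, went from 4.19 and 9.52 to 102 and 153 CPM (4.20 ± 0.43, adjusted p 0.000108). Vwf, von Willebrand factor, which marks platelet-biased stem cells, went from 87.8 and 71.9 to 532 and 659 CPM (2.90 ± 0.29), above all 10 other libraries. Itgb3, the platelet integrin beta chain, went from 26.0 and 29.4 to 84.4 and 97.9 CPM (1.72 ± 0.13), and Gng11, a G protein subunit of platelets, from 16.3 and 13.8 to 59.6 and 77.2 CPM (2.19 ± 0.23). Pf4, platelet factor 4, was uneven within dKO, at 279 and 80.9 CPM against 14.5 and 10.9 CPM (3.82 ± 0.54). In Hoxa9_KO against WT 10 of the 25 rose and none fell, with a median of 1.28; the changes of Mmrn1, Vwf, Itgb3 and Gng11 did not pass the test of a difference between backgrounds. Selp, the adhesion molecule P-selectin, was one that did: it rose by 2.04 in Hoxa9_KO against WT, from 28.8 and 34.4 to 125 and 135 CPM, while Bcat_KO already held 123 and 112 CPM and dKO held 132 and 185 CPM. Its change of 0.43 in dKO was not called without Bcat_KO S3, Bcat_KO S4 or dKO S7, and the difference between the changes was -1.60 (adjusted p 0.00266). In bulk samples a change in the share of a cell type and a change in RNA per cell cannot be told apart.

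Genes of multipotent progenitors fell. Of 22 tested, 17 were lower and none higher, with a median of -1.11, and for 8 of the 17 both dKO libraries lay below all 10 others; 10 of the 17 had a Bcat_KO level not above all others. Cd27, a TNF receptor family member lost in long-term stem cells, stood at 155 and 148 CPM in Bcat_KO and 45.8 and 46.9 CPM in dKO. It fell by 1.71 ± 0.08, the smallest adjusted p of the described genes at 2.44e-06, and by more than the 1.08 of Hoxa9_KO against WT (difference -0.62, adjusted p 0.0107). Cd34 went from 742 and 769 to 260 and 191 CPM (-1.74 ± 0.14), also a larger fall than that of 0.95 in Hoxa9_KO (difference -0.79, adjusted p 0.0338). Csf3r, the G-CSF receptor, went from 172 and 174 to 62.3 and 58.5 CPM, and Sox4, a progenitor transcription factor, from 388 and 416 to 144 and 129 CPM; for both, Bcat_KO was the highest and dKO the lowest group of the series. Cebpa, the myeloid transcription factor, fell by 1.40 ± 0.16, close to its fall of 1.58 in Hoxa9_KO. Mpo, myeloperoxidase, was uneven within dKO (494 and 177 CPM against 1030 and 958 CPM), and its change of -1.57 ranged from -2.50 without the dKO library S6 to -1.01 without S7.

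Lymphoid-primed genes were split. Of 28 tested, 12 were lower and 7 higher, with a median of -0.27, and all 7 rises were genes whose Bcat_KO level lay below all other libraries. Flt3, the cytokine receptor of lymphoid-primed progenitors, went from 253 and 264 to 133 and 82.9 CPM (-1.26 ± 0.18), and Dntt, the template-independent polymerase of antigen receptor assembly, from 353 and 396 to 174 and 94.7 CPM (-1.48 ± 0.21). WT held more of both, 537 and 421 CPM of Flt3 and 1381 and 1232 CPM of Dntt, so both genes were lowest in dKO and highest in WT among the 4 groups. Satb1, a chromatin organiser of early lymphoid cells, fell by 1.55 ± 0.18. Il7r, the interleukin-7 receptor, ran the other way: 3.49 and 3.77 CPM in Bcat_KO against 13.6 and 8.35 CPM in dKO, with 20.7 and 21.7 CPM in WT and 4.70 and 9.07 CPM in Hoxa9_KO.

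**Figure D3:**
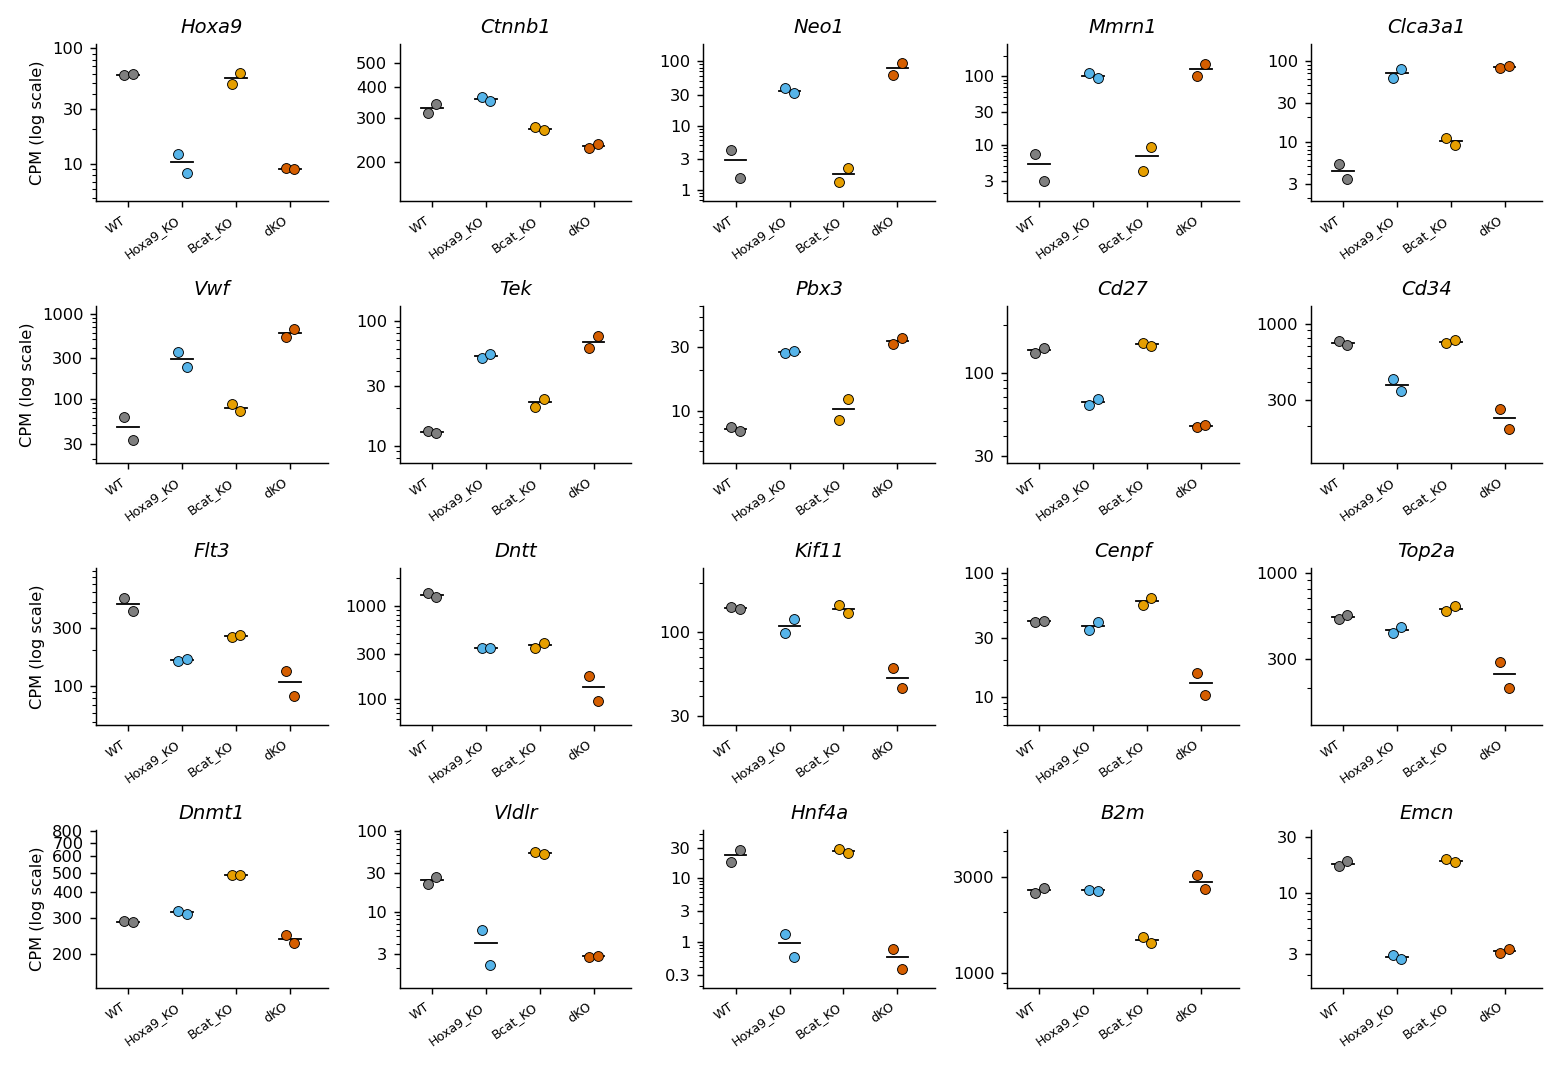
CPM on a log axis of 20 genes in the 2 libraries (points) of WT, Hoxa9_KO, Bcat_KO and dKO, with the group mean as a bar. Neo1, Mmrn1, Clca3a1, Vwf, Tek and Pbx3 are high in both groups without Hoxa9, whereas Kif11, Cenpf and Top2a are lowest in dKO and B2m is lowest in Bcat_KO among the 4 groups.

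Genes of cell division fell. Of 53 mitosis genes tested, 49 were lower and 1 higher, with a median of -1.18, and 45 of the falls were in genes whose Bcat_KO level was not above all other libraries. Their summed level was 5130 and 5048 CPM in Bcat_KO, 2770 and 1965 CPM in dKO, 4904 and 5271 CPM in WT and 3859 and 4600 CPM in Hoxa9_KO, so the 2 dKO libraries were the lowest of these 8. In Hoxa9_KO against WT none of the 53 was called and the median was -0.30. The difference between the 2 comparisons was called for 25 of the 53, all with the larger fall in dKO, beside 3.06% of all autosomal genes called downward. Cenpf, a kinetochore protein, went from 55.6 and 62.6 to 15.6 and 10.3 CPM, a fall of 2.19 ± 0.19 (adjusted p 4.39e-05) against a change of -0.13 in Hoxa9_KO (difference -2.06, adjusted p 0.00246). Incenp, a subunit of the chromosomal passenger complex, went from 143 and 140 to 58.8 and 47.1 CPM (-1.42 ± 0.11). Kif11, the spindle motor Eg5, went from 146 and 131 to 59.6 and 44.8 CPM (-1.41 ± 0.14), and Prc1, which bundles the central spindle, from 57.3 and 49.7 to 20.7 and 16.7 CPM (-1.52 ± 0.15). Top2a, the topoisomerase that untangles chromosomes, went from 583 and 629 to 285 and 199.7 CPM (-1.32 ± 0.14). Cdk1, the kinase that drives mitotic entry, went from 85.8 and 75.0 to 36.0 and 27.8 CPM, and Ect2, an activator of cytokinesis, from 57.1 and 63.5 to 26.6 and 17.8 CPM. The proliferation marker Mki67 stood at 388 and 387 CPM in Bcat_KO, above every other library, and at 118 and 94.0 CPM in dKO (-1.87 ± 0.26), while WT held 176 and 144 CPM. Pttg1, securin, was the 1 mitosis gene that was higher, at 14.6 and 14.9 against 19.6 and 22.1 CPM, and its call was lost without any 1 of the 4 libraries.

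Mitosis promoters often carry a CCAAT box and a cell cycle genes homology region (CHR), elements that are bound by NF-Y and by the MuvB complexes. Shown are 6 falling mitosis genes whose promoter is in the RefSeq table. Genes picked for naming came first, by p. Any places left went, by p, to falling genes that held both elements within 120 bases of the start. The 120 bases before the RefSeq start are given for each gene. They are written 5′ to 3′ on the gene's strand, GRCm38.p6, with CCAAT and the CHR (TTTGAA or TTCGAA) in capitals wherever they occur on either strand.
Kif11 (chr19:37376262-37376381, plus): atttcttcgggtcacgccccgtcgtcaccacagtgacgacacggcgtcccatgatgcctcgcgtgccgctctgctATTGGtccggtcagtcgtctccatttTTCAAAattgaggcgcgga
Cenpf (chr1:189688087-189688206, minus): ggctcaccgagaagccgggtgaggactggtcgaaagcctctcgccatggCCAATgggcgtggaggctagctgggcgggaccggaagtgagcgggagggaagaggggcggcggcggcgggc
Prc1 (chr7:80294331-80294450, plus): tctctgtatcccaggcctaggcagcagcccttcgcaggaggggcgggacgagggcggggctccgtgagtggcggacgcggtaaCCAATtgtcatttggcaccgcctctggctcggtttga
Top2a (chr11:99024190-99024309, minus): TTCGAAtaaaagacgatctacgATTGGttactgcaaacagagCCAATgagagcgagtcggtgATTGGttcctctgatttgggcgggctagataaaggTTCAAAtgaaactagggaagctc
Cdk1 (chr10:69352913-69353032, minus): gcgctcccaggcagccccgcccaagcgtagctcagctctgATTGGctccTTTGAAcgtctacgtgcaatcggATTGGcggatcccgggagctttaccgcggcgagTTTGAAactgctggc
Ect2 (chr3:27153879-27153998, minus): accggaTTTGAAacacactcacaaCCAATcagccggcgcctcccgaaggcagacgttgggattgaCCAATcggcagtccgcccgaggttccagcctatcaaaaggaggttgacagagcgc

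In Kif11 the CCAAT began 45 and the CHR 19 bases before the start, in Cdk1 the nearer pair began 48 and 15 bases before it, and Cenpf and Prc1 held a CCAAT but no CHR in the stretch shown. Of 41 mitosis genes called lower with a promoter in the table, 11 held both elements within these 120 bases. The genes shown held both more often than the falling mitosis genes at large. Their choice could favour genes with both elements, so nothing is read from that share. Within 250 bases before the start, both elements occurred in 18 of the 45 mitosis genes with a promoter in the table (40.0%), against 4.72% of 11346 autosomal genes tested and 6.09% of all 25748 autosomal promoters. The CCAAT alone was found in 73.3% of the mitosis promoters, 56.9% of 51 DNA replication promoters and 35.6% of the genes tested, and the CHR in 44.4%, 17.6% and 12.6%. These are letter matches and were not tested for use in these cells.

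DNA replication genes fell less. Of 61 tested, 41 were lower and none higher, with a median of -0.47. In Hoxa9_KO against WT 4 of the 61 were lower, with a median of -0.21, beside 1.7% of all autosomal genes tested. The difference between the comparisons was called downward for 7 of the 61, beside 3.06% of all autosomal genes tested. The count of 41 became 27 without the Bcat_KO library S3 and 23 without the dKO library S7. The 6 subunits of the replicative helicase, Mcm2 to Mcm7, fell by 0.39 to 0.67. Mcm10, which helps the helicase to start, fell by 1.24, and Pold1, the catalytic subunit of polymerase delta, went from 250 and 246 to 150 and 147 CPM (-0.74 ± 0.07). Dnmt1, the maintenance DNA methyltransferase, stood at 485 CPM in both Bcat_KO libraries, above all others, and at 247 and 227 CPM in dKO, which is near the 289 and 285 CPM of WT. Its fall of 1.03 ± 0.08 differed from its change of 0.15 in Hoxa9_KO (difference -1.19, adjusted p 0.000258). Uhrf1, its cofactor at replicated DNA, went from 196 and 206 to 87.9 and 77.6 CPM (-1.28 ± 0.12), with WT at 200 and 202 CPM.

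Repair and checkpoint genes of homologous recombination and the Fanconi pathway showed 22 of 44 lower and none higher, with a median of -0.48, and 12 lower without the Bcat_KO library S4 or without the dKO library S7. Brca2, a mediator of strand exchange, went from 60.5 and 59.2 to 33.3 and 36.5 CPM, with Bcat_KO the group that stood out, since WT held 37.2 and 35.4 CPM. Exo1, a resection nuclease, fell by 1.29 ± 0.16 and was likewise higher in Bcat_KO than in all 10 other libraries. Such genes were few in this list: 20 of the 22 falls had a Bcat_KO level not above all others. H2afx, which encodes the damage-marking histone H2AX, went from 258 and 233 to 141 and 112 CPM and was lower in dKO than in all 10 other libraries.

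Among p53 and its core targets 5 rose (17.2%) and 6 fell (20.7%) of 29. Among cyclins and their inhibitors 10 rose (32.3%) and 5 fell (16.1%) of 31, with a median of -0.08. Of the 10 rises, 5 had a Bcat_KO level not below all others. The genes named below all rose and do not stand for the list. Over all autosomal genes tested, 15.8% rose and 11.6% fell, so the p53 rises lay near that share. Cdkn1a, which encodes the CDK inhibitor p21, went from 149 and 126 to 201 and 220 CPM (0.62 ± 0.12, adjusted p 0.00459), above all other libraries. Cdkn1c, the p57 inhibitor associated with stem cell quiescence, went from 4.67 and 4.22 to 14.6 and 20.0 CPM (1.96 ± 0.22), and Rbl2, the pocket protein p130 of resting cells, from 37.2 and 44.6 to 75.8 and 95.1 CPM (1.06 ± 0.13).

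**Figure D4:**
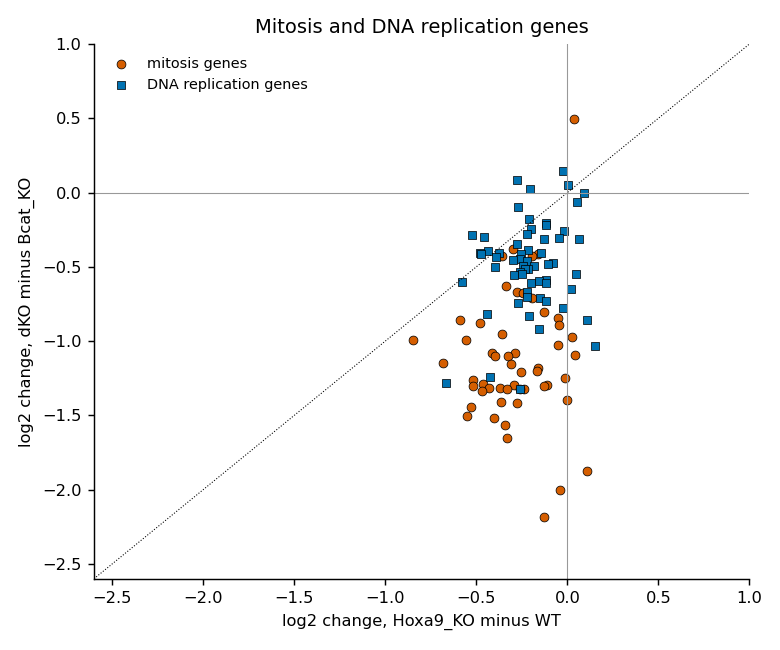
Log2 change of each mitosis gene (circles) and DNA replication gene (squares) in dKO against Bcat_KO (vertical) and in Hoxa9_KO against WT (horizontal), with equal changes on the dotted line. Most points lie below the line; the mitosis median is -1.18 on the vertical axis and -0.30 on the horizontal axis.

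Further lists differed in how often Bcat_KO was the group that stood apart. Over all calls, Bcat_KO lay below all 10 others for 39.0% of the rises and above them for 40.2% of the falls. Of 42 ribosome biogenesis genes 27 fell and none rose, and 9 of the 27 had a Bcat_KO level not above all other libraries. Rrp1b, a nucleolar processing factor, stood at 80.7 and 78.5 CPM in Bcat_KO, 33.3 and 40.4 CPM in dKO and 39.1 and 40.8 CPM in WT. Of 41 chromatin regulators 18 fell and 6 rose, and Dot1l, the H3K79 methyltransferase, fell from 111 and 100 to 35.9 and 36.6 CPM (-1.54 ± 0.13) with WT at 50.9 and 43.5 CPM. In the other direction, 21 of 30 genes of MHC and antigen presentation rose and none fell, with a median of 0.52. Of the 21, 12 had a Bcat_KO level not below all others, near the share over all rises. B2m, the MHC class I light chain, stood at 1517 and 1414 CPM in Bcat_KO and 3053 and 2620 CPM in dKO, against 2492 to 2641 CPM in the 4 WT and Hoxa9_KO libraries. Of 44 interferon response genes 22 rose and none fell, with a median of 0.50, and 10 of the 22 had a Bcat_KO level not below all others. Ifih1, the RNA sensor MDA5, went from 35.8 and 32.6 to 64.0 and 67.0 CPM, higher in dKO than anywhere else, whereas Oasl2 (28.0 and 28.7 against 54.1 and 56.9 CPM) was at 45.0 and 43.7 CPM in WT. Of 74 genes of oxidative phosphorylation 19 rose and 5 fell, and all 19 rises had Bcat_KO below every other library, as for Uqcrb of complex III at 52.0 and 46.8 against 89.3 and 87.8 CPM.

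Markers of mature blood cells were often low in Bcat_KO, though most were not near 0. Members under 1 CPM there numbered 10 of 27 neutrophil, 7 of 27 erythroid, 8 of 24 monocyte, 6 of 20 dendritic cell, 2 of 28 B cell and 17 of 34 T cell, NK cell and innate lymphoid genes. Of 27 neutrophil granule genes 14 rose and 6 fell, 5 of the 27 had no count in Bcat_KO, and 3 of the 14 rises had a Bcat_KO level not below all others. S100a9, the calgranulin subunit, stood at 8.07 and 9.97 CPM in Bcat_KO, 583 and 363 CPM in dKO, 411 and 112 CPM in WT and 16.9 and 280 CPM in Hoxa9_KO. Ltf, lactoferrin, had no count in Bcat_KO and 268 and 189 CPM in dKO, at least 5616-fold higher, and WT held 209 and 52.1 CPM. With limma-voom only 3 neutrophil genes were called, and Ltf was not (adjusted p 0.507). The summed level of the list was 2195 and 2087 CPM in Bcat_KO and 3876 and 2516 CPM in dKO, and Mpo alone, a granule gene of early progenitors, made up 1030 and 958 CPM in Bcat_KO and 494 and 177 CPM in dKO.

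Of 27 erythroid genes 17 rose and none fell, and 8 of the 17 had a Bcat_KO level not below all others. Trim10, an erythroid maturation gene, went from no count to 1.70 and 5.47 CPM with WT at 5.96 and 3.42 CPM. The list summed to 830 and 836 CPM in Bcat_KO, 1513 and 1593 CPM in dKO and 2295 and 1383 CPM in WT. Of 34 T cell, NK cell and innate lymphoid genes 20 rose and 1 fell, and without the dKO library S6 13 rose. Il2rb, the interleukin-2 receptor beta chain, went from 1.14 and 2.12 to 37.9 and 14.2 CPM (3.98 ± 0.49), and Cd7 from 1.27 and 0.518 to 29.7 and 10.5 CPM, against 11.4 and 17.5 CPM and 11.5 and 13.9 CPM in WT. For both genes the dKO library S6 was the higher of its group and Bcat_KO lay below all 10 other libraries. Of the 20 rises of this list, 11 had a Bcat_KO level not below all others. Ighm, the mu heavy chain, reached 24282 and 12111 CPM in dKO against 6831 and 9824 CPM in Bcat_KO and was not called; Jchain, which joins secreted immunoglobulin, went from 666 and 983 to 4717 and 2234 CPM (2.08 ± 0.37). Of 155 immunoglobulin V segments tested, 41.3% were higher and 2.58% lower. B cell genes gave 9 rises of 28, and 14 without the dKO library S7. Of the 9 B cell rises, 4 had a Bcat_KO level not below all others. Dendritic cell genes gave 10 rises and 3 falls of 20, and monocyte genes 7 rises and 1 fall of 24. None of these 17 dendritic cell and monocyte rises was in a gene whose Bcat_KO level was not below all others. Monocyte rises numbered 4 without the dKO library S6.

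Of 27 endothelial and stromal genes 9 rose and 2 fell, and 6 had no count in Bcat_KO. Emcn, endomucin, a glycoprotein shared by endothelium and stem cells, fell from 19.5 and 18.4 to 3.10 and 3.30 CPM (-2.56 ± 0.19), close to the fall in Hoxa9_KO, where it went from 17.1 and 18.7 to 2.95 and 2.75 CPM. Pdgfrb, a growth factor receptor of mural cells, fell from 34.7 and 27.7 to 7.67 and 6.11 CPM (-2.18 ± 0.18), against a change of 0.11 in Hoxa9_KO (difference -2.29, adjusted p 0.000946).

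For the remaining lists, the shares over all autosomal genes tested were 15.8% higher and 11.6% lower. Genes linked to Hoxa9 in blood cells gave 6 rises (20.0%) and 11 falls (36.7%) of 30. The beta-catenin complex with Wnt targets gave 8 rises (28.6%) and 5 falls (17.9%) of 28. Cytosolic ribosomal protein genes gave 21 rises (28.0%) and 6 falls (8.0%) of 75. That split turned to 13 rises and 8 falls with scaling by library size only. Niche and cytokine receptors gave 10 rises (29.4%) and 9 falls (26.5%) of 34. Among them S1pr1, the sphingosine phosphate receptor, rose from 23.8 and 20.3 to 66.2 and 80.8 CPM (1.74 ± 0.17). Immediate early and handling genes, which respond to cell preparation, gave 5 rises (17.9%) and 6 falls (21.4%) of 28. Mast cell and basophil genes gave 6 rises and 2 falls of 20, with 3 rises without the dKO library S6. Glycolysis gave 5 rises (20.8%) and 6 falls (25.0%) of 24, and 3 falls without Bcat_KO S3 or without Bcat_KO S4. Proteasome genes gave 7 rises (18.4%) and 3 falls (7.89%) of 38, with 1 to 3 rises without Bcat_KO S3, Bcat_KO S4 or dKO S6. Cholesterol and fatty acid synthesis gave 4 rises (13.3%) and 2 falls (6.67%) of 30, with 2 rises without Bcat_KO S4 or without dKO S7. The BCL2 family gave 3 rises (17.6%) and 2 falls (11.8%) of 17, with 1 rise without Bcat_KO S3 or without dKO S6. The rises of the immediate early, proteasome, cholesterol and BCL2 lists lay near the share over all genes. Bcat_KO was not below all other libraries for 2 of 8 beta-catenin and Wnt rises, 2 of 6 Hoxa9-linked and 5 of 21 ribosomal protein rises. The same held for 1 of 5 immediate early and 0 of 7 proteasome rises. In the remaining lists it held for 8 of 10 niche, 6 of 6 mast cell, 5 of 5 glycolysis, 3 of 4 cholesterol and 2 of 3 BCL2 rises.

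**Figure D5:**
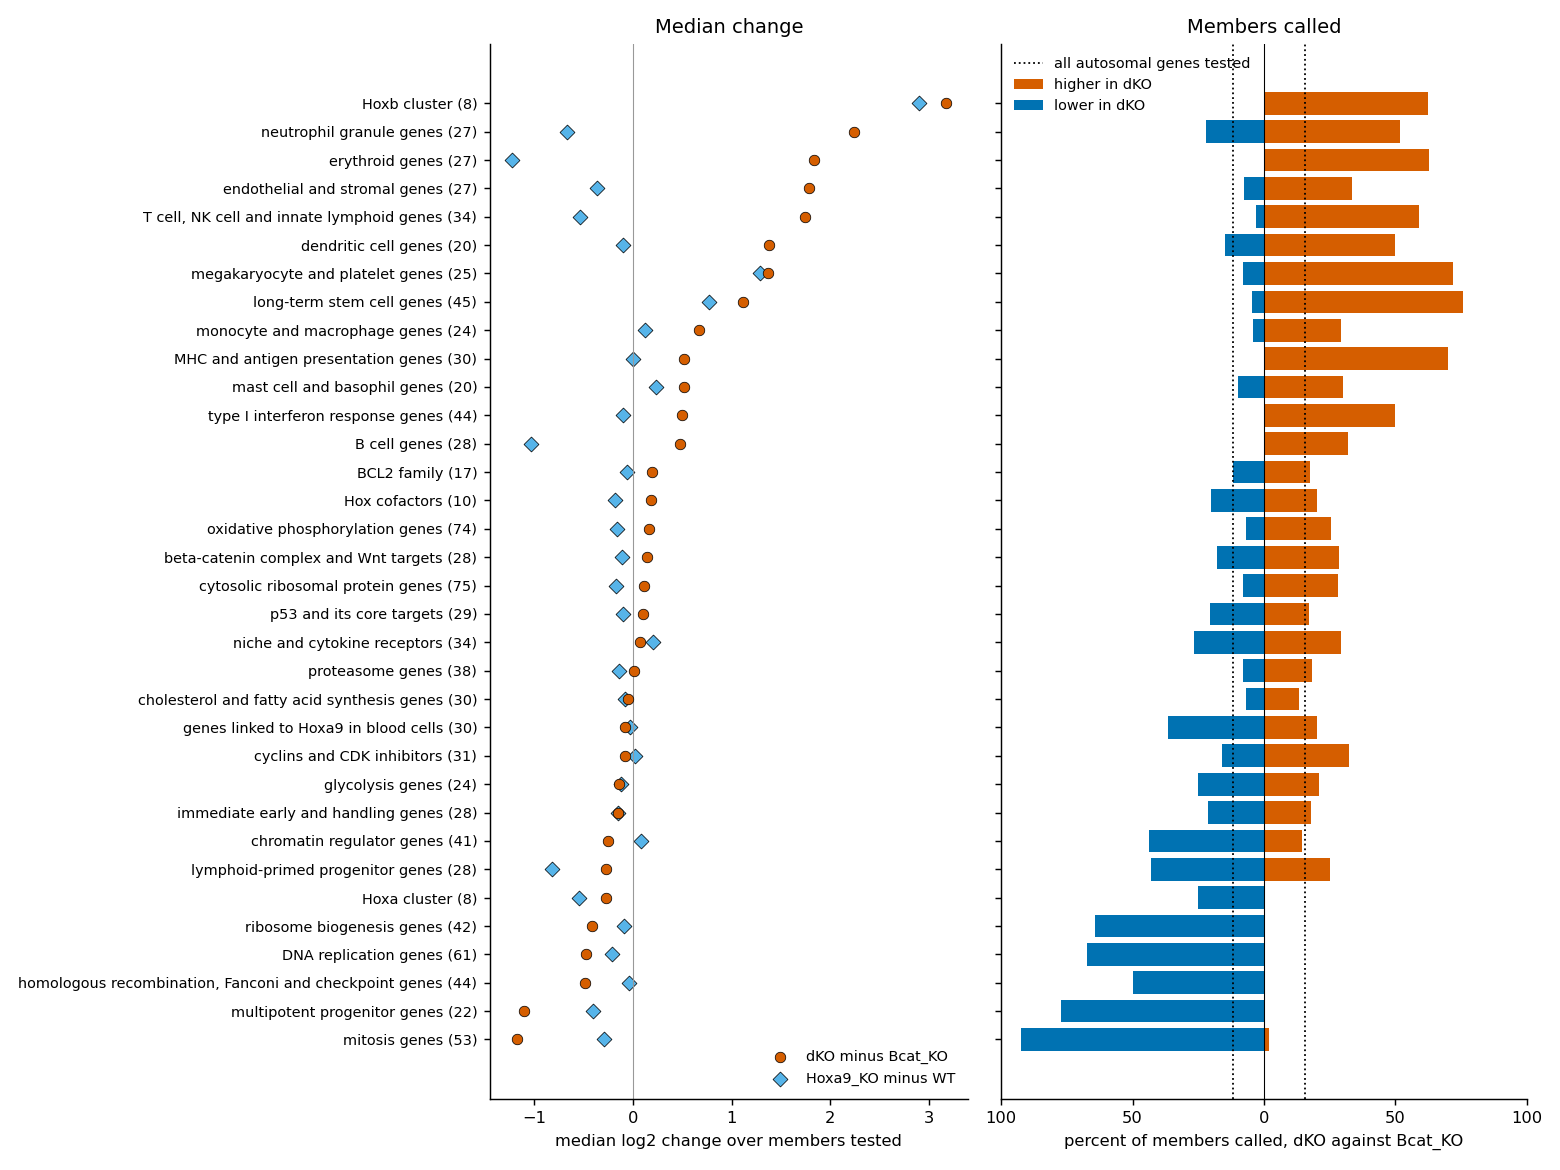
For each of the 34 gene lists, with the members tested in parentheses, the median log2 change in dKO against Bcat_KO and in Hoxa9_KO against WT (left) and the percent of members called higher or lower in dKO (right), with dotted lines at 15.8% and 11.6% for all autosomal genes tested. The Hoxb, megakaryocyte and long-term stem cell lists lie to the right in both comparisons, while the neutrophil, erythroid and T cell lists lie to the right in dKO alone.

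Named by size, the largest rises from a Bcat_KO mean of at least 1 CPM comprised neutrophil genes (Ngp, Lcn2, S100a9, S100a8), genes already given (Neo1, Mmrn1, Il2rb, Pf4) and a few others. Amotl2, an angiomotin family scaffold, went from 1.91 and 2.03 to 28.7 and 52.5 CPM (4.36 ± 0.42), and Gda, guanine deaminase, from 8.13 and 6.13 to 75.3 and 173 CPM (4.13 ± 0.34). Myom1, the sarcomere protein myomesin, went from 0.699 and 2.55 to 23.3 and 26.3 CPM (3.91 ± 0.50). All 3 also rose in Hoxa9_KO, by 2.60, 2.37 and 3.09. From near 0, Krt83, a hair keratin, had no count in Bcat_KO and 10.1 and 4.93 CPM in dKO, at least 185-fold higher, and Cntn1, the neural adhesion molecule contactin, had 10.2 and 4.10 CPM, at least 176-fold higher. Both were under 3 CPM in WT and Hoxa9_KO, so dKO exceeded all 10 other libraries.

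The largest falls began with Vldlr, the very low density lipoprotein receptor, at 53.9 and 51.6 CPM in Bcat_KO and 2.79 and 2.81 CPM in dKO (-4.23 ± 0.37, adjusted p 5e-05). WT held up to 26.7 CPM of Vldlr and Hoxa9_KO 6.01 and 2.16 CPM, so Bcat_KO was the highest group. Emp1, an epithelial membrane protein, went from 53.9 and 59.2 to 13.5 and 4.63 CPM, Itga9, an integrin alpha chain, from 11.8 and 10.9 to 1.63 and 1.52 CPM, and Apold1, an early response gene of endothelium, from 7.56 and 8.58 to 1.01 and 1.18 CPM. Epb41l3, a membrane skeleton protein, fell by 2.53 ± 0.37, further than in Hoxa9_KO (difference -2.06, adjusted p 0.037). Rtn2, a reticulon, fell by 2.74 ± 0.41 from a level seen in Bcat_KO alone, 12.9 and 10.9 CPM against 1.12 to 2.43 CPM in the WT, Hoxa9_KO and dKO libraries. Rps27rt and Psme2b were likewise higher in Bcat_KO than in all 10 other libraries, but they have near-identical copies elsewhere in the genome, so their counts are uncertain. Hnf4a, a nuclear receptor best known from liver, fell to near 0, from 28.5 and 25.2 to 0.774 and 0.380 CPM (-5.53 ± 0.41, adjusted p 2.32e-05), and it fell in Hoxa9_KO from 17.8 and 27.8 to 1.31 and 0.582 CPM.

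Of the rises, 419 were also called higher in Hoxa9_KO against WT, which is 16.0% of the rises here and 70.5% of those there; 152 falls were shared, 7.93% and 54.3%. The difference between the 2 comparisons was called for 1162 genes (7.04%), 657 upward (3.98%) and 505 downward (3.06%); with scaling by library size only the split was 545 upward and 689 downward. It was called for 597 of the rises, of which 585 had the larger change in the same direction here, and for 427 of the falls, of which 425 did. Ltf, Mmp9, Retnlg, Krt83 and Cntn1, all at 0 in Bcat_KO, were among those called upward, and the size of their difference cannot be given. Ptprf, a receptor phosphatase called downward, stood at 18.4 and 21.4 CPM in Bcat_KO and 5.73 and 3.34 CPM in dKO against 3.87 and 3.93 CPM in WT, with a difference of -3.13 (adjusted p 0.014).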

How the data were processed

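RNA-seq read counts per gene were deposited by the authors as 1 table of raw counts for the 12 libraries, and no normalization was found in the values. Per the labels' protocols, the kits were RNeasy Plus Micro for RNA and NEB Ultra II Directional for libraries. Trim Galore 0.6.6, STAR 2.7.6a, featureCounts and the build GRCm38 (mm10) are named in the submitters' processing notes. Neither strand setting nor annotation release is given in the sources used here. Without them, overlapping and antisense genes may share counts.

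From these counts a single model over all 12 libraries and 6 groups was fitted with edgeR 4.0.16 in R 4.3.3 (TMM, filterByExpr with a minimum count of 10, glmQLFit, glmQLFTest), with Benjamini-Hochberg adjustment over all 17063 genes tested. Contrasts were dKO against Bcat_KO, Hoxa9_KO against WT, and their difference. The procedure was tested on simulated data. Alternatives used limma 3.58.1 and DESeq2 1.42.0, other scalings and filters, fewer libraries and each library left out. Coordinates are from GENCODE M21 and promoters from RefSeq (GRCm38.p6).

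Single genes were taken from autosomal protein-coding genes that were called, with groups that did not overlap and a mean of at least 2 CPM: the 12 largest rises and 12 largest falls from or to at least 1 CPM, the 6 largest of each from or to less, the 5 largest differences between comparisons each way, and up to 4 called members of each list by p. Not all of these are reported here, and further list members were named after their values were seen. The members and lists were chosen with earlier results of these data known. A fold against groups with no count used a floor of 3 counts over the group. Total counts were 17570000 to 40554000 per library in the 4 groups used, and 2 libraries a group limit the precision. Columns named control were read as the untargeted group. Genes on the sex chromosomes and the mitochondrial genome were left out of the counts of calls.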

Additional observations from a re-analysis of the deposited data

Results flagged for a closer look

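For the genes below, the log2 change of dKO over Bcat_KO differed from the log2 change of Hoxa9_KO over WT by the edgeR test of that difference, and the value given is the first change minus the second. The genotype, the Bcat_KO libraries as made, and the sex that separates WT from Hoxa9_KO cannot be told apart in these differences.

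For genes with no count in either Bcat_KO library the fitted difference depends on the prior count and is no measure of size. Those values were 16.43 for Ltf, 14.13 for Mmp9, 13.64 for Retnlg, 11.11 for Krt83, 11.07 for Cntn1, 11.01 for Trim10 and 8.02 for Hoxb8. Other mature-cell genes that were low in Bcat_KO gave 8.93 for Ngp, 7.60 for Lcn2, 6.52 for S100a9, 5.98 for S100a8, 4.61 for Il2rb and 4.27 for Cd7.

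Among genes of stem cells and surface receptors the difference was 3.20 for Il7r, 1.75 for Gda, 1.43 for S1pr1 and 0.70 for Ly6a, the gene of the gate marker Sca-1. It was -0.95 for Clca3a1 and -1.60 for Selp, which rose less here than in Hoxa9_KO against WT. B2m and Uqcrb both gave 0.95, and Oasl2 gave 0.85.

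Cell division genes fell further here. The difference was -2.06 for Cenpf, -1.98 for Mki67, -1.14 for Incenp, -1.11 for Prc1, -1.06 for Top2a, -1.05 for Kif11, -0.91 for Ect2 and -0.86 for Cdk1. Replication and repair genes gave -1.19 for Dnmt1, -1.17 for Exo1, -1.01 for Brca2 and -0.47 for Pold1. Progenitor genes gave -1.14 for Csf3r, -1.12 for Sox4, -0.79 for Cd34 and -0.62 for Cd27. Dot1l gave -1.35 and Rrp1b -1.21.

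The remaining falls were -3.13 for Ptprf, -2.99 for Rtn2, -2.77 for Psme2b, -2.49 for Rps27rt, -2.29 for Pdgfrb and -2.06 for Epb41l3.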

How the results depend on the processing

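The 4530 calls in dKO against Bcat_KO became 2569 with the 4 libraries of this comparison alone, 2741 over genes whose Bcat_KO level was not beyond all 10 other libraries (an alternative chosen after seeing the data) and 2772 to 3371 with 1 library left out. With scaling by library size only they were 2178 higher and 2329 lower, and the median over all genes was -0.01. The calls in Hoxa9_KO against WT became 1507 with no filter, 1574 with DESeq2, 548 with the 8 libraries of the 4 groups and 309 to 700 with 1 library left out, 309 being without WT S1, 424 without WT S2 and 487 without Hoxa9_KO S4. The 1162 calls of the difference became 1928, 2095 and 465 in the same 3 settings, 722 with limma-voom and 351 to 945 with 1 library left out, 351 being without WT S1, 479 without Bcat_KO S4, 513 without WT S2, 524 without Hoxa9_KO S4 and 729 without Bcat_KO S3, and with library size only they were 545 higher and 689 lower. The change of Ctnnb1 was -0.21 with no filter, -0.23 with limma-voom, -0.25 with 4 libraries and -0.26 to -0.18 with 1 left out, past the threshold in none of these, while Hoxa9 passed in every setting. Of 178 other called genes examined singly, 147 kept the call in every setting that gave a value, 31 lost it in at least 1 and none turned direction. The causes were not tested. Genes with under 1 CPM in Bcat_KO rest on few counts, and a count of 0 there sets only an upper limit. No paired analysis was possible because the value columns carry library tags and no replicate numbers.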
